A study of Mus musculus with 8 samples.

Results

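*Islr*, which encodes meflin, and 9 genes of leucine-rich matrix proteoglycans (*Dcn*, *Bgn*, *Aspn*, *Lum*, *Fmod*, *Prelp*, *Omd*, *Ogn* and *Podn*) were analysed in sorted cardiac fibroblasts. The 10 genes were taken by their symbols from the 18957 genes listed for each library, and all 10 passed the filter on low counts, as did 13036 genes in total. As a group they were chosen by their role in the matrix and selected on counts of the same 8 libraries, with the log2 fold changes between the genotypes known. The difference of each of the 10 genes between the genotypes is therefore given as a description, with its standard error and without a test.

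The cells were PDGFRA-positive, lineage-negative cells sorted by FACS from the ventricles of mice aged 3 to 4 weeks, of a strain labelled C57BL/6 (mixed). RNA was sequenced from 4 WT and 4 *Pdgfra-Cre:LmnaF/F* samples. The WT mice were littermates without Cre and without floxed alleles. In the *Pdgfra-Cre:LmnaF/F* mice, both alleles of *Lmna*, which encodes the nuclear lamins A and C, carried a floxed exon 2, and the Cre recombinase was driven by *Pdgfra* regulatory sequence on a BAC transgene. PDGFRA also marks mesenchymal cells other than cardiac fibroblasts, and not every sorted cell of these mice lacks LMNA. Libraries with the transgene alone were not analysed here, so the Cre transgene and the loss of *Lmna* cannot be told apart. The labels do not say whether a sample came from 1 mouse, and the p-values measure only the spread between these samples. In bulk RNA, fewer cells of a type and less RNA per cell cannot be told apart either.

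Small leucine-rich proteoglycans are secreted proteins with a core of leucine-rich repeats that bind collagen fibrils in the matrix and set their spacing and thickness. Decorin (*Dcn*), biglycan (*Bgn*) and asporin (*Aspn*) form one class, of which the first pair carries chondroitin or dermatan sulfate chains, while lumican (*Lum*), fibromodulin (*Fmod*), PRELP (*Prelp*) and osteomodulin (*Omd*) form another, several of them with keratan sulfate, and osteoglycin (*Ogn*) and podocan (*Podn*) belong to further classes. Several of these proteins also bind TGF-beta, BMPs or their receptors, and they are made in large amounts by cardiac fibroblasts. Meflin is a leucine-rich protein with an immunoglobulin domain that is anchored to the cell surface, marks mesenchymal stromal cells and fibroblasts, and is known to promote BMP signalling.

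Total counts lay between 2080555, in WT replicate 2, and 12502949, in *Pdgfra-Cre:LmnaF/F* replicate 4. Expression is given as CPM, counts scaled to a common library size with TMM factors. *Lmna*, as a check of the genotypes, was measured at 331.3, 273.7, 482.9 and 373.9 CPM in the WT libraries and at 126.2, 97.4, 130 and 90.42 CPM in the *Pdgfra-Cre:LmnaF/F* libraries (fell by 1.72 ± 0.224 on the log2 scale, SE, adjusted p = 0.00492 with edgeR). The counts are per gene, so reads of the deleted exon were not separated from the others. The fibroblast markers, 8 genes that include *Pdgfra* and *Col1a1*, summed to 65000 to 76100 CPM in the WT and 62100 to 71900 CPM in the *Pdgfra-Cre:LmnaF/F* libraries (two-sided p = 0.2 by an exact permutation test, adjusted p = 0.36 over 9 marker lists). Most of this sum came from *Gsn* (means of 39630 CPM in the WT and 41320 CPM in the *Pdgfra-Cre:LmnaF/F* libraries) and *Col3a1* (19070 and 13390 CPM). *Ddr2* was lower without overlap (447.7 and 361.1 CPM), and the other markers of this list overlapped. Cardiac myocyte markers (8 of 8 genes listed) summed to 740 to 985 CPM in the WT and 304 to 5760 CPM in the *Pdgfra-Cre:LmnaF/F* libraries, and *Pdgfra-Cre:LmnaF/F* replicate 4 was also the highest library for blood cell markers, at 393.4 CPM, and for valve and tendon fibroblast markers, at 674.5 CPM. In that library *Cilp*, at 582.5 CPM, and *Thbs4*, at 79.5 CPM, gave nearly all of the valve and tendon sum. The other genes of that list, *Scx*, *Wif1*, *Comp*, *Chad* and *Mkx*, were at 0 to 5.833 CPM there, so the sum does not show valve or tendon cells. The sums of endothelial markers (574 to 792 and 445 to 590 CPM, adjusted p = 0.257, permutation test), mural cell markers (252 to 408 and 219 to 425 CPM), epicardial markers (11 to 45.8 and 6.67 to 15.7 CPM) and Schwann cell markers (26.6 to 51.3 and 34.9 to 63.8 CPM) were low beside those of the fibroblast markers in both genotypes. No defining marker of these lists that the files hold was at the floor of 3 counts in all libraries. The 16 genes of the dissociation response summed to 2170 to 5580 CPM in the WT and 7970 to 13200 CPM in the *Pdgfra-Cre:LmnaF/F* libraries, without overlap (two-sided p = 0.0286 by an exact permutation test, the smallest p that 4 against 4 libraries allow, adjusted p = 0.257). Y-linked genes summed to 143.4 to 229.6 CPM in 3 WT libraries and to 273.4 CPM in *Pdgfra-Cre:LmnaF/F* replicate 4, to 0.3196 CPM in WT replicate 3, and to 0.2069 to 1.957 CPM in the other 3 *Pdgfra-Cre:LmnaF/F* libraries. High Y-linked expression, a sign of male cells, was thus partly confounded with genotype. Results are given with a covariate for Y-linked expression, added after the data were seen, or without *Pdgfra-Cre:LmnaF/F* replicate 4 where this changed a call or moved a log2 fold change by over 1.5 times. The part of the other differences was not tested.

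The promoters of *Islr*, *Prelp* and *Omd* are shown because these 3 genes had the largest differences between the genotypes among the genes with a WT mean of 10 CPM or more. RefSeq windows of the mouse genome build GRCm38.p6 were found for 8 of the 10 genes, and not for *Dcn* and *Lum*. Each sequence is given 5′ to 3′ on the strand of the gene and ends at the last base before the start that RefSeq gives, and capitals mark the only match to any of the motifs searched. *Islr* lies at chr9:58158555-58158804 (minus strand), *Prelp* at chr1:133921402-133921651 (minus strand) and *Omd* at chr13:49582212-49582461 (plus strand), these being the windows and not the genes.

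Islr: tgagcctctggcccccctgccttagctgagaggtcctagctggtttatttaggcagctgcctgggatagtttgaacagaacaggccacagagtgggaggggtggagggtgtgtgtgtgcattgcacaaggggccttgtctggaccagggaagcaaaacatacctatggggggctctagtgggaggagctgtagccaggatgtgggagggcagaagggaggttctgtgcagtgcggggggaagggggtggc
Prelp: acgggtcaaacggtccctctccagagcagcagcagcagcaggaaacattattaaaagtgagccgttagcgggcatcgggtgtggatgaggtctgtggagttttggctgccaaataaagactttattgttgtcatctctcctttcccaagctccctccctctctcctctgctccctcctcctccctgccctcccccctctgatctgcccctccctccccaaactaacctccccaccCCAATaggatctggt
Omd: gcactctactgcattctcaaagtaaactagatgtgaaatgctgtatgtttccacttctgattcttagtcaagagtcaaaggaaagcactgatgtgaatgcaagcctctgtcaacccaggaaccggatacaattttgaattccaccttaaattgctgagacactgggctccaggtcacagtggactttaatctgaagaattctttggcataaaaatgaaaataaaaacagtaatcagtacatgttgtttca

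The GC content of these 250 bases was 59.6% for *Islr*, 55.6% for *Prelp* and 38.4% for *Omd*, and the median of all 32851 RefSeq windows was 52.4%. The motifs were chosen after the expression values had been seen, and both strands were searched. *Prelp* held a CCAAT box (CCAAT) close to its RefSeq start, and 33.8% of all windows hold one. The other letters searched were TATAAA as the TATA box, then GGGCGG as the GC box, then TGACTCA as the AP-1 element, then GGAATG as the TEAD element, then CACGTG as the E-box, and finally TGACGTCA as the CRE. No match was found in the windows of *Islr* and *Omd*, which says only that these letters are not in these 250 bases. Among the other genes, *Aspn* and *Ogn* each had 2 matches to the TATA box, which 12.4% of windows hold. *Aspn* also had 1 match to the CCAAT box, and *Ogn* 1 match to the TEAD element, which 12.6% of windows hold. *Bgn* had 3 matches, and *Podn* had 2 matches in 1 of its 2 windows, to the GC box, which 32.7% of windows hold. The GC content ranged from 30.0% in *Aspn* to 78.0% in a window of *Podn*.

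Several of the genes are neighbours in the genome. *Aspn* (chromosome 13, 49544443 to 49567565, GRCm38), *Omd* (49582462 to 49592822) and *Ogn* (49608046 to 49624501) lie in a row on the plus strand of chromosome 13, next to their relative *Ecm2*, with gaps of 11.7, 14.9 and 15.2 kb. *Dcn* (97479609 to 97518143) and *Lum* (97565128 to 97572703) lie on the plus strand of chromosome 10, 47.0 kb apart. *Prelp* (133910304 to 133921414, minus strand) and *Fmod* (134037254 to 134048277, plus strand) lie on chromosome 1, 115.8 kb apart. *Bgn* lies on chromosome X (73483602 to 73495933), *Podn* on chromosome 4 (108014791 to 108096445) and *Islr* on chromosome 9 (58156268 to 58204306, minus strand). This GENCODE span of *Islr* covers all its transcripts and begins upstream of the RefSeq start used for the window above, which therefore lies inside the span. The windows of *Podn* also lie inside its span. For *Prelp*, the window begins at 133921402, so its 3′ end, where the CCAAT box is, overlaps the GENCODE span up to 133921414. The log2 fold change between the genotypes was -0.997 ± 0.223 for *Prelp* and -0.79 ± 0.816 for *Fmod* (SE), the latter at few counts and nearer to 0, at -0.39, without *Pdgfra-Cre:LmnaF/F* replicate 2. In the row on chromosome 13 it was -0.02 for *Aspn*, whose sign changed with the library left out, 0.93 for *Omd* and -0.18 for *Ogn*. *Islr* shares 181 exonic bp on the same strand with *Islr2*, a paralogue, and reads there could have been assigned to neither or either of them. The counts of both genes are uncertain to that extent. On the opposite strand, *Prelp* shares 350 exonic bp with the antisense gene Gm15851 and *Aspn* 7 exonic bp with Cenpp, whose span also holds *Omd* and *Ogn*. The libraries mark strand, but whether the counting used it is not given in the sources used here.

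In the WT fibroblasts the 10 genes covered a wide range of levels, from the second most abundant tested gene to genes in the lower part of the ranking. Levels were compared between genes only after division by the length of the exons (CPM per kb, mean ± SD, n = 4). *Dcn* stood at 2575 ± 565.6 CPM per kb, rank 2 of 13006 ranked genes, and *Lum* at 1469 ± 307.5 CPM per kb, rank 10. *Islr* followed at 534.6 ± 43.54 CPM per kb, rank 36. *Bgn* was measured at 478.6 ± 117.2 CPM per kb and *Ogn* at 370.3 ± 52.63 CPM per kb. These 5 genes were thus among the 68 most abundant tested genes of the WT libraries. *Prelp* stood at 178.3 ± 21.02 CPM per kb and *Aspn* at 177.3 ± 63.58 CPM per kb. *Podn* was lower, at 27.21 ± 3.625 CPM per kb. *Omd* at 5.316 ± 1.349 CPM per kb and *Fmod* at 2.351 ± 0.6805 CPM per kb, ranks 6792 and 9325, were the least abundant of the 10.

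Not all neighbours in this order were apart. The WT ranges of *Lum* and *Islr*, of *Ogn* and *Prelp*, of *Aspn* and *Podn*, and of *Podn* and *Omd* did not overlap. *Dcn* and *Lum*, and *Omd* and *Fmod*, overlapped in range but kept their order within each of the 4 WT libraries. The pairs *Islr* and *Bgn*, *Bgn* and *Ogn*, and *Prelp* and *Aspn* kept it in 3 of 4 WT libraries and did not differ beyond their spread. When CPM was not divided by length, or divided by the longest transcript, *Bgn* stood above *Islr*.

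In the *Pdgfra-Cre:LmnaF/F* fibroblasts, *Dcn* and *Lum* remained the first pair in each of the 4 libraries, at 3299 ± 504.5 and 1470 ± 450.9 CPM per kb. *Islr* stood at 187.5 ± 43.5 CPM per kb and was below *Bgn* in 4 of 4 libraries. *Prelp*, at 89.37 ± 25.12 CPM per kb, was below *Aspn* in 3 of 4 libraries. *Omd*, at 10.09 ± 4.039 CPM per kb, was above *Fmod* in 4 of 4 libraries and above *Podn* in 1 of 4.

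**Figure D1:**
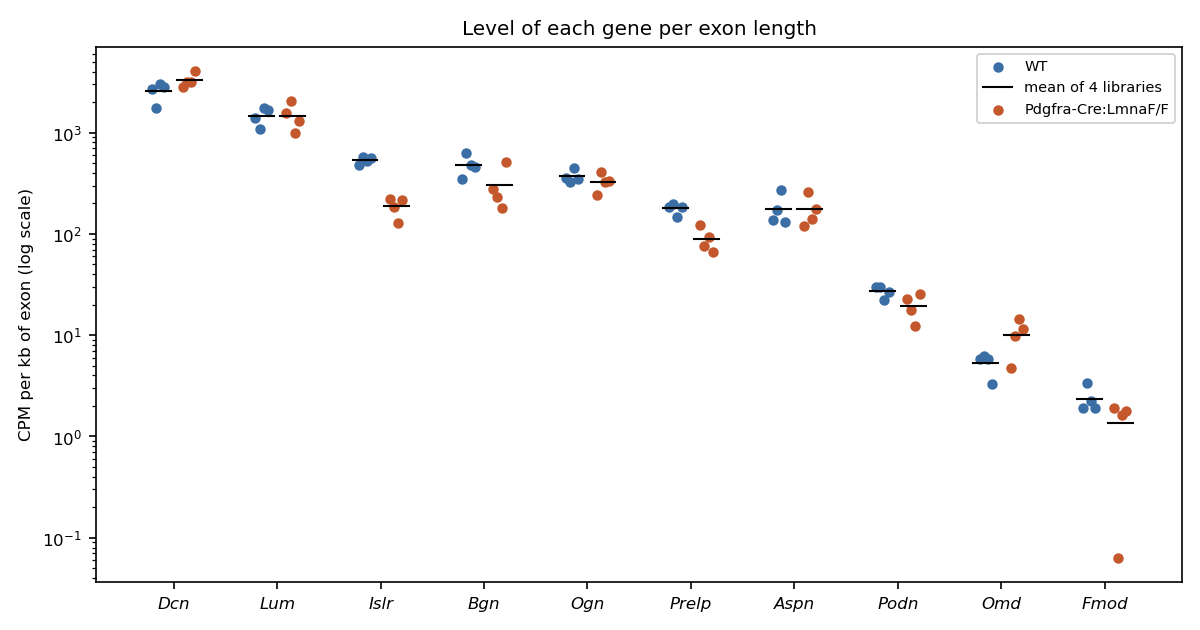
Level of each gene as CPM per kb of exon on a log axis, with genes ordered by their WT mean, 1 point per library and a line at the mean of 4 libraries. *Dcn* and *Lum* are at the top in both genotypes, the *Islr* points of the *Pdgfra-Cre:LmnaF/F* libraries lie below all its WT points, and the *Fmod* point of *Pdgfra-Cre:LmnaF/F* replicate 2 rests on 2 counts.

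Between the genotypes, *Islr* showed the largest difference of the 10 genes. It was measured at 1283, 1552, 1412 and 1497 CPM in the WT libraries and at 593.4, 497.1, 340.9 and 583.3 CPM in the *Pdgfra-Cre:LmnaF/F* libraries. Every *Pdgfra-Cre:LmnaF/F* library was thus below every WT library. The mean was 1436 ± 116.9 CPM in the WT and 503.7 ± 116.8 CPM in the *Pdgfra-Cre:LmnaF/F* fibroblasts (SD, n = 4 each), a 2.85-fold lower level (log2 fold change -1.51 ± 0.218, SE). Relative to its mean, the spread was wider in the *Pdgfra-Cre:LmnaF/F* libraries, with a coefficient of variation of 23.2% against 8.14% in the WT. Leaving out 1 library at a time moved the log2 fold change between -1.60 and -1.36, and without *Pdgfra-Cre:LmnaF/F* replicate 4 it was -1.59. WT replicate 3, low in Y-linked counts like 3 of the *Pdgfra-Cre:LmnaF/F* libraries, was at 1412 CPM, and *Pdgfra-Cre:LmnaF/F* replicate 4, high in them like the other WT libraries, was at 583.3 CPM. With the Y-linked covariate the log2 fold change of *Islr* was -1.47.

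**Figure D2:**
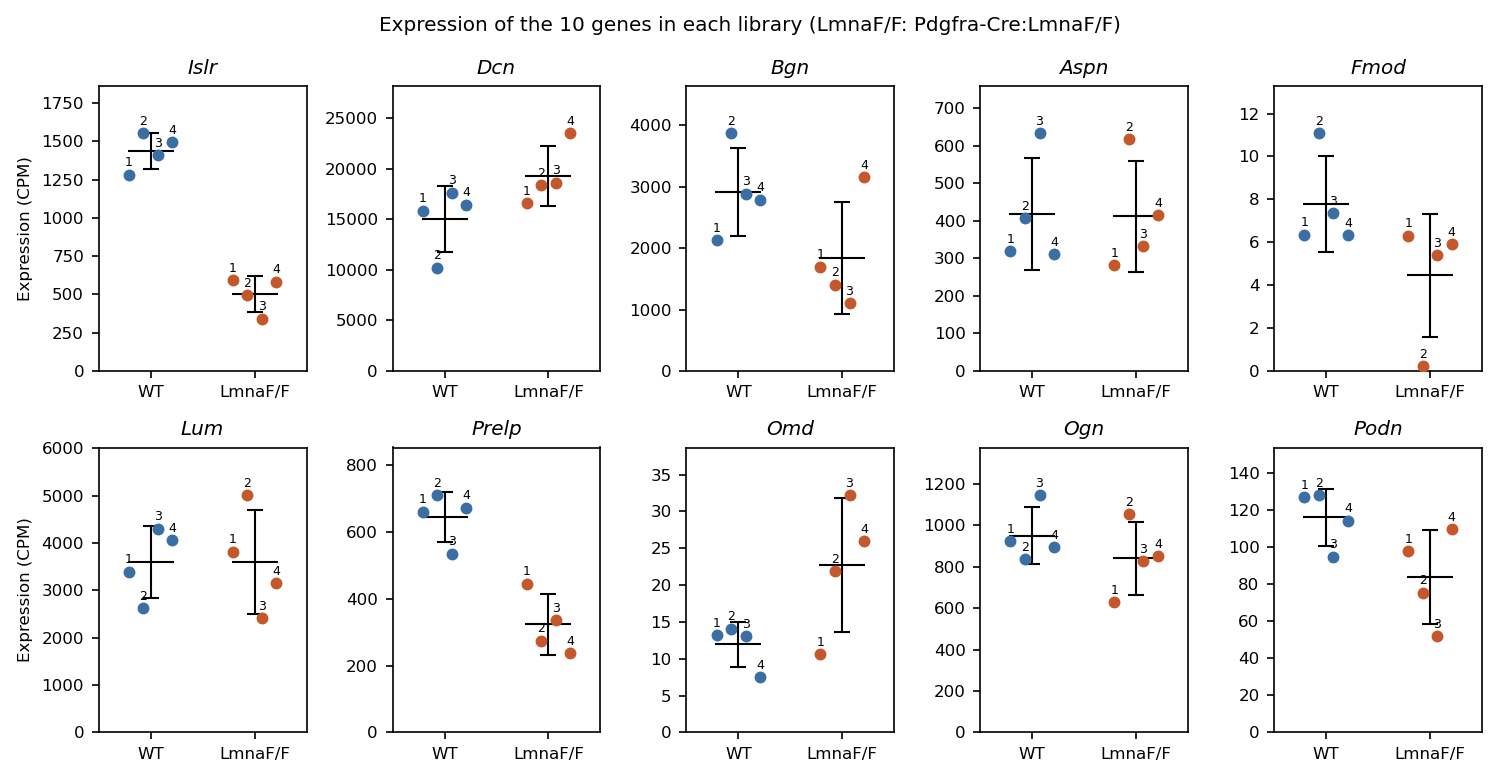
Expression in CPM (linear axes starting at 0) of each of the 10 genes in the 4 WT and 4 *Pdgfra-Cre:LmnaF/F* libraries, with replicate numbers at the points and bars for mean and SD. The groups are apart for *Islr* and *Prelp*, both lower in the *Pdgfra-Cre:LmnaF/F* libraries. Those of *Fmod* nearly touch, at 6.316 CPM in the WT and 6.31 CPM in the *Pdgfra-Cre:LmnaF/F* libraries, and the other 7 genes overlap.

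The levels of *Dcn* and *Bgn*, which carry chondroitin or dermatan sulfate chains, overlapped between the genotypes. *Dcn*, the collagen-binding proteoglycan that also binds TGF-beta, was measured at 15840, 10210, 17630 and 16440 CPM in the WT and at 16610, 18350, 18600 and 23470 CPM in the *Pdgfra-Cre:LmnaF/F* libraries. The groups overlapped, with WT replicate 2, the shallowest library, as the lowest. The log2 fold change was 0.36 ± 0.234 (SE), and it was 0.21 without WT replicate 2 and 0.25 without *Pdgfra-Cre:LmnaF/F* replicate 4. *Bgn*, the X-linked relative of *Dcn* that also signals through Toll-like receptors when released from the matrix, was measured at 2133, 3866, 2886 and 2791 CPM in the WT and at 1700, 1406, 1103 and 3155 CPM in the *Pdgfra-Cre:LmnaF/F* libraries. Replicates 1 to 3 of *Pdgfra-Cre:LmnaF/F* were below each WT library, and replicate 4 was above 3 of them. Its log2 fold change was -0.66 ± 0.303 (SE), and without replicate 4 it was -1.06. Replicate 4 is the library with the high sums of cardiac myocyte and blood cell markers and with high *Cilp* and *Thbs4*. It is also the only *Pdgfra-Cre:LmnaF/F* library with high Y-linked counts. With the Y-linked covariate the log2 fold change of *Bgn* was -0.52, and the part of the marker sums in its level was not tested.

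*Aspn*, which competes with *Dcn* for collagen, differed little in its mean. It was measured at 319.2, 406.6, 632.2 and 311.3 CPM in the WT and at 282, 616.3, 332.4 and 415.1 CPM in the *Pdgfra-Cre:LmnaF/F* libraries. Each group held 1 library well above its others, and the log2 fold change was -0.02 ± 0.281 (SE). Its sign changed with the library left out, from -0.28 without *Pdgfra-Cre:LmnaF/F* replicate 2 to 0.25 without WT replicate 3, and it was -0.15 with the Y-linked covariate.

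Among the lumican class, *Prelp* was lower in the *Pdgfra-Cre:LmnaF/F* fibroblasts, *Omd* was higher on average, and *Lum* did not differ in its mean. *Prelp*, a basic protein that links the matrix to basement membranes, was measured at 660.1, 710.5, 535.3 and 672.7 CPM in the WT and at 445.2, 274.5, 335 and 237.6 CPM in the *Pdgfra-Cre:LmnaF/F* libraries. The groups did not overlap. The means were 644.6 ± 76 and 323.1 ± 90.8 CPM, with a log2 fold change of -0.997 ± 0.223 (SE) that ranged from -1.20 to -0.88 with 1 library left out.

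*Lum*, which regulates the diameter of collagen fibrils, was measured at 3393, 2624, 4299 and 4065 CPM in the WT and at 3818, 5013, 2415 and 3147 CPM in the *Pdgfra-Cre:LmnaF/F* libraries. The lowest and the highest of the 8 libraries were both *Pdgfra-Cre:LmnaF/F*, and the means were 3595 ± 752.8 and 3598 ± 1104 CPM. The log2 fold change was 0.00 ± 0.253 (SE), with a sign that depended on the scaling and on the library left out, over a range of -0.20 to 0.15 for the latter, and it was -0.14 with the Y-linked covariate.

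*Omd*, a keratan sulfate proteoglycan known mainly from bone, was measured at 13.17, 14.09, 13.1 and 7.455 CPM in the WT and at 10.65, 21.9, 32.23 and 26 CPM in the *Pdgfra-Cre:LmnaF/F* libraries. Replicates 2 to 4 of *Pdgfra-Cre:LmnaF/F* were above every WT library, and replicate 1 was within the WT range. The means were 11.95 ± 3.033 and 22.7 ± 9.084 CPM, a 1.91-fold higher level (log2 fold change 0.93 ± 0.4, SE). These values rest on 28 to 141 counts per WT library and 103 to 312 counts per *Pdgfra-Cre:LmnaF/F* library.

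*Fmod*, which acts early in the assembly of collagen fibrils in tendon, was near the limit of this depth. It had 68, 22, 46 and 61 counts in the WT and 61, 2, 47 and 71 counts in the *Pdgfra-Cre:LmnaF/F* libraries. The WT levels of 6.353, 11.07, 7.35 and 6.316 CPM were all above the *Pdgfra-Cre:LmnaF/F* levels of 6.31, 0.2086, 5.411 and 5.917 CPM, but the lowest WT level of 6.316 CPM and the highest *Pdgfra-Cre:LmnaF/F* level of 6.31 CPM were nearly equal. The log2 fold change of -0.79 ± 0.816 (SE) was -0.39 without *Pdgfra-Cre:LmnaF/F* replicate 2, whose 2 counts are at the floor.

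*Ogn* and *Podn*, which belong to the remaining classes, overlapped between the groups. *Ogn*, also known as mimecan, was measured at 923.3, 837.3, 1146 and 894.9 CPM in the WT and at 627.2, 1055, 827.8 and 850.4 CPM in the *Pdgfra-Cre:LmnaF/F* libraries (log2 fold change -0.18 ± 0.21, SE). The fold change was -0.07 without *Pdgfra-Cre:LmnaF/F* replicate 1, -0.31 without replicate 2 and -0.08 without WT replicate 3. *Ogn* was the gene with the smallest relative spread within the WT libraries after *Islr*, *Prelp* and *Podn*. *Podn* was measured at 127, 128.3, 94.91 and 114.5 CPM in the WT and at 97.85, 75.6, 52.04 and 109.7 CPM in the *Pdgfra-Cre:LmnaF/F* libraries. Only the lowest WT library fell within the range of the other group, and the log2 fold change of -0.47 ± 0.235 (SE) was -0.30 without *Pdgfra-Cre:LmnaF/F* replicate 3, -0.63 without replicate 4 and -0.30 with the Y-linked covariate.

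**Figure D3:**
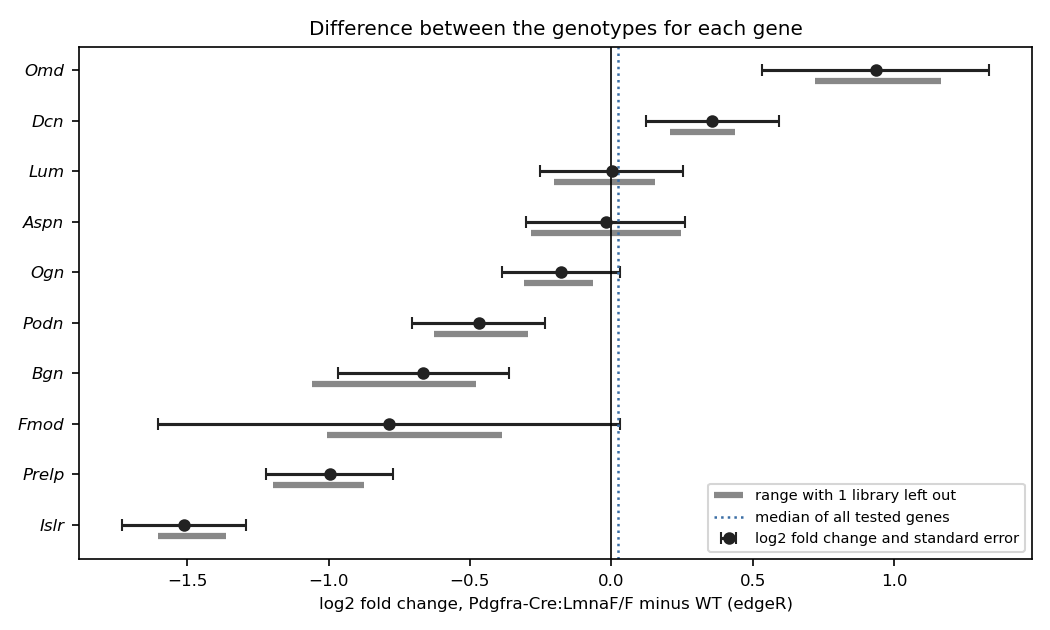
Log2 fold change of each gene (*Pdgfra-Cre:LmnaF/F* minus WT, edgeR) with its standard error as a black bar, the range with 1 library left out as a grey bar and the median of all tested genes as a dotted line. *Islr* and *Prelp* are farthest below 0 at -1.51 and -0.997, *Omd* is highest at 0.93, and the grey bars of *Lum* and *Aspn* cross 0.

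In the fit across all tested genes, 1 of the 10 genes, *Islr*, passed an adjusted p under 0.05, and 0.407% of all tested genes (53 of 13036) did so. The levels of the 2 groups did not overlap for 3 of the 10 genes, all lower, and for 8.03% of all tested genes. The 3 genes were *Islr*, *Prelp* and, by only 6.316 against 6.31 CPM, *Fmod*. Without *Pdgfra-Cre:LmnaF/F* replicate 4 the count of genes without overlap was 4 of 10, with *Bgn* as the addition, beside 12.4% of all tested genes. Nothing is read from these counts, because the genes were chosen with this comparison known.

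The genes together made up a like share of the RNA in both genotypes, while their proportions differed. Their summed level was 25130 ± 3570 CPM in the WT and 26890 ± 3728 CPM in the *Pdgfra-Cre:LmnaF/F* libraries, or 2.462% ± 0.3799 and 2.722% ± 0.2769 of all counts (SD, n = 4 each). Without *Dcn*, the sum was 10100 ± 909.2 CPM in the WT and 7629 ± 1566 CPM in the *Pdgfra-Cre:LmnaF/F* libraries. *Dcn* gave 64.1%, 50.1%, 61.5% and 61.3% of the summed CPM in the WT and 68.7%, 67.2%, 77.4% and 73.3% in the *Pdgfra-Cre:LmnaF/F* libraries. All 4 *Pdgfra-Cre:LmnaF/F* libraries were above the 4 WT libraries in this share. For every 100 CPM of *Dcn* there were 8.1, 15.2, 8.01 and 9.1 CPM of *Islr* in the WT and 3.57, 2.71, 1.83 and 2.49 CPM in the *Pdgfra-Cre:LmnaF/F* libraries. The ratio of *Lum* to its neighbour *Dcn* was 21.4 to 25.7 CPM per 100 CPM in the WT, and in the *Pdgfra-Cre:LmnaF/F* libraries it was 23, 27.3, 13 and 13.4, so that 2 libraries lay within or above the WT range and 2 below it. These ratios are of CPM within a library and are not corrected for exon length.

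The genes with profiles most like that of *Islr* were found by the root mean square distance between log2 CPM values over the 8 libraries, each gene centred on its own mean. The 5 nearest of all other tested genes outside the group were *S100a11* (distance 0.246), *Cmklr1* (0.26), *1600014C10Rik* (0.303), *Creld1* (0.304) and *Ifi27* (0.305), on a scale where the profile of *Islr* itself has a root mean square of 0.807. *S100a11*, which encodes a small calcium-binding protein, was measured at 82.87, 97.61, 83.88 and 111.2 CPM in the WT and at 36.93, 40.67, 23.49 and 25.67 CPM in the *Pdgfra-Cre:LmnaF/F* libraries. *Cmklr1*, the chemerin receptor, was measured at 267.3, 369.3, 349.6 and 237.6 CPM in the WT and at 175.2, 113.2, 92.67 and 117.7 CPM in the *Pdgfra-Cre:LmnaF/F* libraries. Each of the 5 was lower in all *Pdgfra-Cre:LmnaF/F* libraries than in any WT library, which follows from their likeness to *Islr*. *1600014C10Rik* differed from *Islr* in its even level within a genotype, at 24.95 ± 1.45 and 9.272 ± 0.6599 CPM. The remaining pair, *Creld1*, which encodes a protein with EGF-like domains linked to septation of the heart, and *Ifi27*, an interferon-induced gene, had log2 fold changes of -1.21 and -1.09.

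**Figure D4:**
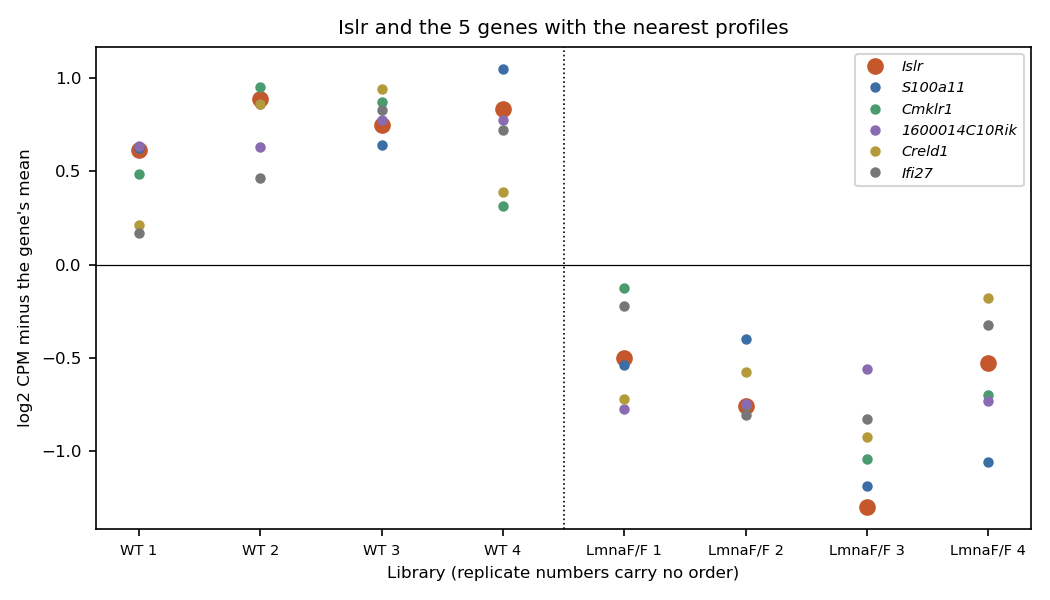
Log2 CPM of *Islr* and of the 5 genes with the nearest profiles, each centred on its own mean, with 1 point per gene and library. All points of the WT libraries are above 0 and all points of the *Pdgfra-Cre:LmnaF/F* libraries below 0, with *Islr* lowest at -1.30 in *Pdgfra-Cre:LmnaF/F* replicate 3.

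The other genes of the pathway were taken in 7 lists with 131 genes, of which 109 were tested. Of these, 1 was called higher and 1 lower with edgeR, and 34 had an unadjusted p under 0.05, as did 11.9% of all tested genes. DESeq2 called 12 of them and limma-voom 8. Over all genes, DESeq2 called 2.21% (310 of the 14014 genes with an adjusted p) and limma-voom 0.967% (126 of 13036), which is the background for the counts of the single lists. The median log2 fold change was -0.13 over the 109 genes and 0.02 over all tested genes.

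Among 12 relatives with leucine-rich repeats, 8 were tested and 0 were called with edgeR, DESeq2 or limma-voom, and 1 had an unadjusted p under 0.05. That gene was *Islr2*, the paralogue that overlaps *Islr* and is expressed mainly in neurons, with 32.33, 42.77, 20.93 and 33.03 CPM in the WT and 12, 9.906, 2.418 and 19.75 CPM in the *Pdgfra-Cre:LmnaF/F* libraries. The groups did not overlap, and the log2 fold change was -1.54 ± 0.481 (SE, adjusted p = 0.203 with edgeR). *Tsku*, which encodes the secreted protein tsukushi, had a log2 fold change of -0.71 (adjusted p = 0.464 with edgeR), with -0.47 without *Pdgfra-Cre:LmnaF/F* replicate 4 and -1.07 without replicate 1. *Nyx*, which encodes nyctalopin, was at 0 to 6.907 CPM with a log2 fold change of 1.55 (adjusted p = 0.771 with edgeR), which was 0.81 without *Pdgfra-Cre:LmnaF/F* replicate 3 and 2.79 without WT replicate 3. *Ecm2*, the neighbour of *Aspn*, was at 220.4 ± 22.91 and 240.4 ± 73.81 CPM.

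Among 25 other proteoglycan core proteins, 19 were tested and 0 were called with edgeR, 7 had an unadjusted p under 0.05, and DESeq2 called 1 and limma-voom 0. *Prg4*, which encodes the lubricant lubricin, was measured at 2.149, 1.51, 0 and 5.074 CPM in the WT and at 17.48, 6.569, 8.749 and 121.6 CPM in the *Pdgfra-Cre:LmnaF/F* libraries (adjusted p = 0.112 with edgeR). Its groups did not overlap, and the highest level was in *Pdgfra-Cre:LmnaF/F* replicate 4, the library with high *Cilp* and *Thbs4*. Its log2 fold change was 4.04, and 2.27 without that library (adjusted p = 0.398 with edgeR). *Prg4* was called with the Y-linked covariate (5.24, adjusted p = 0.00238), without the filter on low counts (adjusted p = 0.000129), with 1 RUVr factor (adjusted p = 0.0459) and with a replicate block (adjusted p = 0.0279). The log2 fold changes of the syndecan *Sdc3* and of versican (*Vcan*) were -0.91 and -0.75 (adjusted p = 0.166 and 0.298 with edgeR).

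Of the enzymes that build the sugar chains, 0 were called with edgeR, DESeq2 or limma-voom. For chondroitin and dermatan sulfate, 15 of 21 tested genes had a negative log2 fold change, with a median of -0.16, and 3 had an unadjusted p under 0.05. *Chst7* and *Chst14*, sulfotransferases, and *Chpf*, a polymerizing factor, had log2 fold changes of -0.66, -0.79 and -0.50 (adjusted p = 0.311, 0.313 and 0.36 with edgeR). For keratan sulfate, 5 of 6 tested genes were negative, with a median of -0.41, and 1 had an unadjusted p under 0.05. *B4galt1*, a galactosyltransferase, and the sulfotransferases *Chst1* and *Chst2* had log2 fold changes of -0.64, -0.68 and -0.57 (adjusted p = 0.289, 0.489 and 0.628 with edgeR), that of *Chst1* being -0.39 with the Y-linked covariate and that of *Chst2* -0.87 without *Pdgfra-Cre:LmnaF/F* replicate 3.

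The collagens and other matrix proteins that the proteoglycans bind were lower in their median than the other lists. Of 19 genes, all tested, 15 had a negative log2 fold change, the median was -0.51, 10 had an unadjusted p under 0.05, and 1 was called with edgeR, 6 with DESeq2 and 5 with limma-voom. The called gene was *Eln*, which encodes elastin, the core of elastic fibres. It was measured at 2241, 2341, 1097 and 1564 CPM in the WT and at 631.5, 731.1, 560.4 and 773.1 CPM in the *Pdgfra-Cre:LmnaF/F* libraries. *Eln* fell by 1.42 ± 0.252 on the log2 scale (SE, adjusted p = 0.0303 with edgeR), with no overlap between the groups. The call was lost without any 1 of WT replicates 1, 2 and 4 and *Pdgfra-Cre:LmnaF/F* replicates 1, 2 and 3, with adjusted p values of 0.0527 to 0.108 and log2 fold changes of -1.49 to -1.28, and was kept without *Pdgfra-Cre:LmnaF/F* replicate 4 (adjusted p = 0.0191). The genes with the next lowest p were chains of fibrillar and beaded-filament collagens. *Col5a3* was at 1212 ± 242.1 and 596.9 ± 147.5 CPM (adjusted p = 0.0833 with edgeR). *Col6a2* and *Col6a3* had log2 fold changes of -1.21 and -1.09 (adjusted p = 0.114 and 0.123). *Col6a2* was called without WT replicate 3 (-1.43, adjusted p = 0.0307 with edgeR). *Lox*, next by p, went the other way, at 102.5 ± 35.44 CPM in the WT and 370.6 ± 323.5 CPM in the *Pdgfra-Cre:LmnaF/F* libraries. Its log2 fold change was 1.86 (adjusted p = 0.125 with edgeR), with overlap. The part of *Pdgfra-Cre:LmnaF/F* replicate 4, its highest library at 826.4 CPM, was not tested. All 3 collagen genes were also called with DESeq2, with limma-voom and without the filter, with adjusted p values of 0.000613 to 0.0172.

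Among growth factors, receptors and their target genes that the proteoglycans or meflin are known to act on, 15 of 23 tested genes had a positive log2 fold change, with a median of 0.16, and 9 had an unadjusted p under 0.05. The test of edgeR called 1 of them, DESeq2 3 and limma-voom 2. The gene called was *Id1*, an inhibitor of differentiation that is a direct target of BMP signalling. It was measured at 31.86, 26.16, 32.12 and 34.69 CPM in the WT and at 57.93, 78.1, 128.5 and 64.75 CPM in the *Pdgfra-Cre:LmnaF/F* libraries, with no overlap. *Id1* rose with a log2 fold change of 1.39 ± 0.267 (SE, adjusted p = 0.0368 with edgeR). The call was lost without any 1 of the 4 WT libraries or *Pdgfra-Cre:LmnaF/F* replicates 2 and 3, with adjusted p values of 0.0645 to 0.129, and with the Y-linked covariate (log2 fold change 1.32, adjusted p = 0.0546) or a replicate block. It was kept without *Pdgfra-Cre:LmnaF/F* replicate 4 (adjusted p = 0.0215 with edgeR), and the log2 fold change ranged from 1.09 to 1.52 with 1 library left out. *Id3*, its relative, was at 198.1 ± 85.88 and 548.9 ± 135.8 CPM (log2 fold change 1.46, adjusted p = 0.0568 with edgeR, 0.0452 without *Pdgfra-Cre:LmnaF/F* replicate 4 and 0.0374 without WT replicate 3). Of the TGF-beta genes, *Tgfb3*, a ligand, had a log2 fold change of -0.55 and *Tgfbr1*, a receptor, one of 0.83 (adjusted p = 0.249 and 0.138 with edgeR), both without overlap. The ligands *Tgfb1* and *Bmp4* overlapped between the groups, at log2 fold changes of 0.16 and 0.37. The summed dissociation response, given above, was also higher in all *Pdgfra-Cre:LmnaF/F* libraries, and its part in the level of *Id1* and *Id3* was not tested.

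The last list held proteases that cleave these proteins or their precursors, and *Pcolce*, which is not itself a protease. Of its genes, 13 of 16 were tested, with a median of 0.03, and 0 were called with edgeR. An unadjusted p under 0.05 was found for 3 of them, and DESeq2 called 2 and limma-voom 1. *Pcolce*, which enhances the processing of procollagen by *Bmp1*, was at 1435 ± 325.5 and 768.9 ± 196.4 CPM, without overlap (adjusted p = 0.133 with edgeR). *Adamts1*, a metalloprotease that cleaves proteoglycans, was at 213.7 ± 22.69 and 393.8 ± 99.57 CPM, also without overlap (adjusted p = 0.0987). *Htra1*, a serine protease, had a log2 fold change of -0.61 (adjusted p = 0.404), or -0.95 without *Pdgfra-Cre:LmnaF/F* replicate 2.

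**Figure D5:**
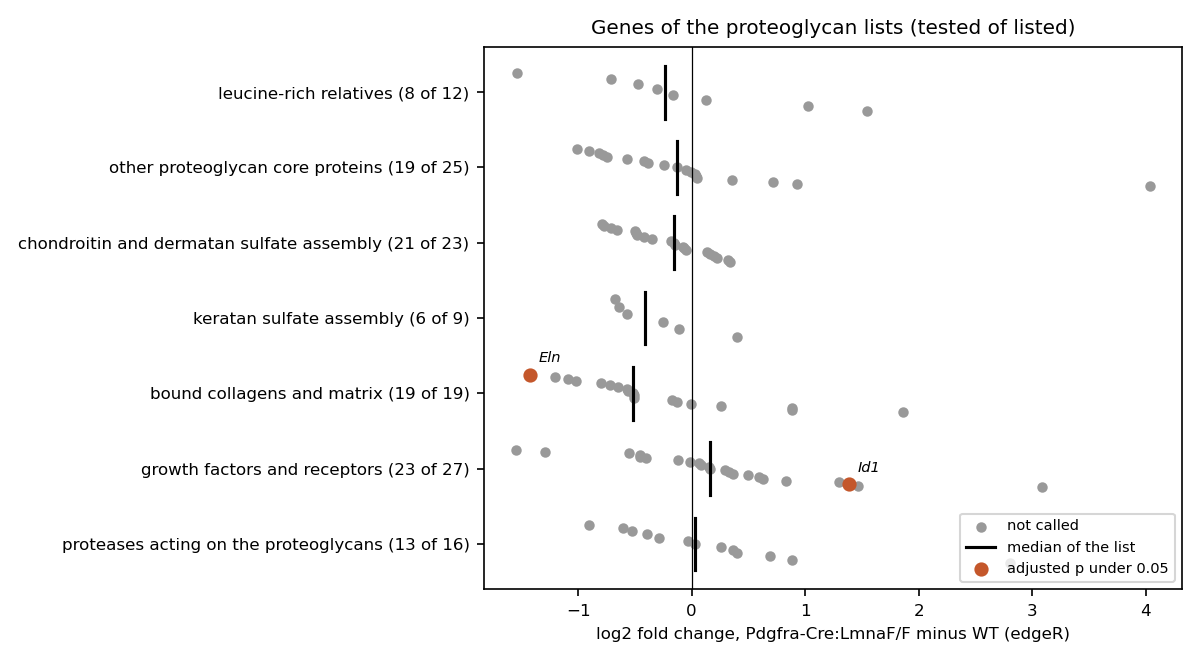
Log2 fold change (*Pdgfra-Cre:LmnaF/F* minus WT, edgeR) of each tested gene in the 7 lists, with the number tested of those listed, a black line at the median of each list and called genes in orange. *Eln* among the matrix genes (-1.42) and *Id1* among the growth factor genes (1.39) are the 2 called genes, and the lowest list median is that of the collagens and matrix at -0.51.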

How the data were processed

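Gene expression was compared between 4 WT and 4 *Pdgfra-Cre:LmnaF/F* samples, grouped by the titles in the sample labels. RNA with a RIN above 8 was depleted of ribosomal RNA and made into stranded libraries, which were read as pairs of 150 bp. The authors used HISAT2 for alignment to mm10 and featureCounts with GENCODE for counting. The submitters' processing notes also name FastQC and DESeq2. The deposited values are raw counts, 1 whole number for each symbol, and are not scaled for depth. The methods name RUV normalization, which such counts do not contain. Total counts of 2080555 to 12502949 limit the precision, and 3 counts were used as the floor, which covers counting error only. Replicates are separate samples by their labels.

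The analysis used edgeR 4.0.16 in R 4.3.3 (TMM factors, filterByExpr, quasi-likelihood test with genotype as the only term, Benjamini-Hochberg adjustment over all 13036 tested genes, threshold 0.05). CPM per kb used the union of exons in GENCODE M21 (GRCm38), where 18918 of 18957 symbols were found. Standard errors are those of the log2 fold change. For marker sums, an exact permutation test (two-sided) was run over the 70 assignments of the libraries. Profiles used log2 CPM with a prior count of 2. Promoter windows were the 250 bases before each RefSeq start. The fits were tested on counts drawn with known fold changes before use. Figures were drawn with matplotlib 3.10.9.

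The 10 genes, the lists of pathway genes and the marker lists were chosen with earlier results of these data known. Besides *Lmna* and the 10 genes, the text names each called gene of a pathway list and up to 3 further genes with the lowest p, and the 5 genes nearest to *Islr*. *Ecm2*, *Tgfb1*, *Bmp4* and *Lox* were added after their values were seen, as were the single marker genes. The files list *Ccn2* and *Ccn4* as *Ctgf* and *Wisp1*. Alternatives were DESeq2 1.42.0, limma-voom 3.58.1, RLE and upper-quartile factors, no filter, at least 10 counts in every library, 1 RUVr factor, thinning to the shallowest library, a replicate block, leaving out each library, and, as an addition once the results were known, a covariate for Y-linked expression.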

Additional observations from a re-analysis of the deposited data

Results flagged for a closer look

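In 100 groups of 4 libraries, a library far from the other 3 by Dixon's criterion was found 12 times, and chance alone gives about 1 in 20. *Fmod* in *Pdgfra-Cre:LmnaF/F* replicate 2 was at 0.2086 CPM, with the others at 5.411 to 6.31 CPM. *Omd* in WT replicate 4 was at 7.455 CPM, with the others at 13.1 to 14.09 CPM. The level of *Islr* per 100 CPM of *Dcn* was 15.21 in WT replicate 2, the library with the lowest *Dcn*, and 8.007 to 9.102 in the others.

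*Pdgfra-Cre:LmnaF/F* replicate 4 stood apart in *Prg4*, at 121.6 CPM against 6.569 to 17.48 CPM, and in the summed markers of cardiac myocytes (5764 CPM against 304.1 to 900.6), of blood cells (393.4 CPM against 43.86 to 91.76) and of valve and tendon fibroblasts (674.5 CPM against 49.16 to 121.6). WT replicate 3 stood apart in *B4galt1* at 265.9 CPM (the others at 463.7 to 475.5), in *Chst1* at 17.26 CPM (28.03 to 30.03) and in *Tgfbr1* at 100.8 CPM (75.48 to 76.24). The summed cardiac myocyte markers of WT replicate 1 were 985.3 CPM, with the others at 740.4 to 760.6 CPM. The summed dissociation response of *Pdgfra-Cre:LmnaF/F* replicate 3, the library with the lowest *Islr*, was 13160 CPM, with the others at 7970 to 8833 CPM.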

How the results depend on the processing

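Called genes numbered 53 (22 higher, 31 lower) with edgeR, 310 (134 and 176) with DESeq2, 126 (63 and 63) with limma-voom, 274 without the filter, 81 (44 and 37) with 1 RUVr factor, 119 (63 and 56) with the Y-linked covariate, which was added after the data were seen, and 13 to 76 with 1 library left out. The low of 13 was without WT replicate 4. Of the 10 genes, 1 was called with edgeR and 2 with DESeq2, with limma-voom and without the filter, where *Prelp* was the second, and 1 to 2 with 1 library left out, 2 without *Pdgfra-Cre:LmnaF/F* replicate 1. Of the pathway genes, 2 were called with edgeR, 12 with DESeq2, 8 with limma-voom, 12 without the filter, 4 with 1 RUVr factor, and 0 to 3 with 1 library left out, none being called without WT replicate 1, 2 or 4 or without *Pdgfra-Cre:LmnaF/F* replicate 2 or 3. Named pathway genes not called with edgeR, with *Lox* left aside, were called with DESeq2 for *Col5a3*, *Col6a2*, *Col6a3*, *Id3*, *Sdc3*, *Tgfbr1*, *Adamts1* and *Pcolce*, with limma-voom for *Col5a3*, *Col6a2*, *Col6a3*, *Id3* and *Adamts1*, and without the filter for *Col5a3*, *Col6a2*, *Col6a3*, *Id3*, *Sdc3*, *Adamts1*, *Pcolce*, *Islr2* and *Prg4*. Of the 9 neighbouring pairs in the order by level, 8 kept their order without division by length, 7 with the longest transcript, and 8 to 9 with 1 library left out. Without *Pdgfra-Cre:LmnaF/F* replicate 4, the log2 ratio of the summed markers turned negative for cardiac myocytes (range -0.21 to 1.64 with 1 library left out), blood cells (-0.43 to 1.002) and valve and tendon fibroblasts (-0.55 to 1.23). The cause of these changes was not tested.

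The deviations of same-numbered libraries from their group means had correlations of -0.027, -0.0298, -0.00406 and 0.0396. The labels do not say whether the numbers pair the samples. Correlations over all genes, with 4 libraries per group, cannot decide it. With a replicate block 36 genes were called, with 1 of the 10 genes and 3 pathway genes among them, and the calls of *Id1* (log2 fold change 1.33, adjusted p = 0.0764 with edgeR), *Cmklr1* (0.0673) and *Ifi27* (0.104) were lost, while *Prg4* (0.0279) and *Id3* (0.0401) were called. Over the alternatives other than leaving out a library, the log2 fold change ranged from -1.54 to -1.47 for *Islr* and from -1.07 to -0.98 for *Prelp*. *Fmod*, at 2 to 71 counts per library, was the gene of the 10 with the fewest counts.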
